A study of Mus musculus with 8 samples.

Results

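Transcripts of Schwann cells, the glia of peripheral nerve, were followed in whole bladder RNA from 8 libraries: the 8 genes Mbp, Pmp22, Prx, Mag, Sox10, S100b, Cdh19 and Gfap, out of 38926 gene symbols counted. The genes were taken by symbol from a given list, and all 8 were found and passed the filter on low counts. Bladder tissue of mice was compared between NeMO, a nerve-sparing murine partial bladder outlet obstruction (4 libraries), and sham-operated mice (Sham, 4 libraries). The labels give no strain, age, sex or time after surgery, and do not state whether the libraries are from separate animals, so p-values measure only the spread between these libraries, which may be technical. Each library was polyA RNA of bladder tissue and carried a batch mark, with 2 NeMO and 3 Sham libraries in batch 1 and 2 NeMO libraries and 1 Sham library, replicate 4, in batch 2. Library totals ran from 27212499 to 36375313 counts.

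Schwann cells wrap peripheral axons. Myelinating Schwann cells each wind around a single large axon and build compact myelin, with Mbp and Pmp22 among its proteins, while non-myelinating (Remak) Schwann cells hold bundles of thin, unmyelinated axons and carry more Gfap and Ngfr. Both descend from the neural crest and depend on the transcription factor Sox10. Most autonomic and sensory axons that reach the bladder wall are thin.

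None of the 8 genes passed the test between NeMO and Sham over all genes (edgeR's quasi-likelihood test, Benjamini-Hochberg adjustment over 16370 genes, threshold 0.05), by which 0.0733% of all genes were called (0.0428% higher and 0.0305% lower in NeMO). The smallest adjusted p among the 8 was 0.212, for Pmp22, and DESeq2's Wald test also called 0 of the 8, against 5.53% of all genes. Before adjustment, p was under 0.05 for 2 of the 8, Pmp22 and S100b, both lower in NeMO, and for 0 in the higher direction; the shares of all genes were 9.14% lower and 9.38% higher. The NeMO and Sham values overlapped for all 8 genes, while 8.19% of all genes showed no overlap (4.39% higher and 3.81% lower in NeMO). Of the 8 log2 fold changes (NeMO minus Sham), 6 were below 0, with a median of −0.35. Over all genes tested 51.7% were below 0 and the median was −0.01. In bulk tissue each value is a share of the library's reads. Differences in Schwann cell number, in RNA per Schwann cell and in the amount or RNA of other cells cannot be told apart.

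**Figure D1:**
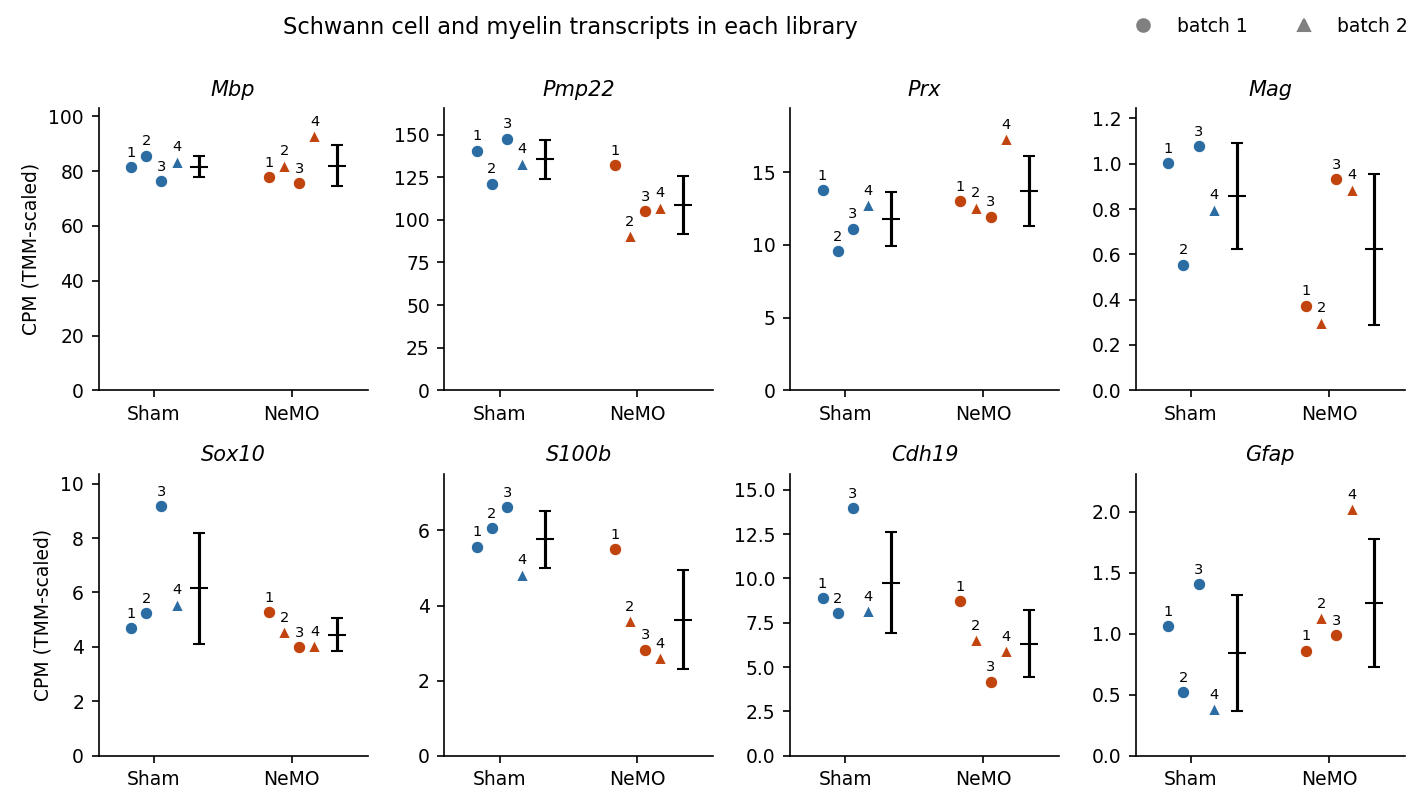
CPM (reads scaled by TMM-adjusted library size) of the 8 genes in each library, with Sham in blue, NeMO in red, circles for batch 1, triangles for batch 2, and replicate numbers above the points; bars show mean ± SD (n = 4). The groups overlap in every panel, and Sham replicate 3 is the highest library for Sox10 (9.16 CPM) and Cdh19 (14.0 CPM).

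Pmp22, the most abundant of the 8 genes per length, encodes peripheral myelin protein 22, a membrane protein of compact myelin that is also made by fibroblasts and epithelia. The gene is known to start from an upstream promoter used mainly in myelinating Schwann cells and from a downstream one active in many tissues, and the deposited counts are per symbol and merge them; the windows are shown because of that. RefSeq (GRCm38.p6) gives 4 windows for it, each from 250 bases before to 50 bases after a transcript start. The first and the last, both on the plus strand, are printed with CG dinucleotides in capitals.
Pmp22 at chr11:63128732-63129031: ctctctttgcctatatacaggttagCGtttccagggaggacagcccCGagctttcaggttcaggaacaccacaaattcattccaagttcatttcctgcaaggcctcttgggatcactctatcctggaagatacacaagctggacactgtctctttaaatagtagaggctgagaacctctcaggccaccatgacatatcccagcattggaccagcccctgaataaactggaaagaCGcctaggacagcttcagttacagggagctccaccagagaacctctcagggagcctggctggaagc
Pmp22 at chr11:63132553-63132852: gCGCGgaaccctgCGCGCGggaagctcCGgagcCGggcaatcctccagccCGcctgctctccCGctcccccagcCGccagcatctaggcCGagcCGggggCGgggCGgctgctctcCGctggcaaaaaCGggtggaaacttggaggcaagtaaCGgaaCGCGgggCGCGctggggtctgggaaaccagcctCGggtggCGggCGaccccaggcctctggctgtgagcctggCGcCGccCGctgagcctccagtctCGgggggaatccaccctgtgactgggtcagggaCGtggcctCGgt
The first window held 3 CG dinucleotides and the last held 30. The median over 32851 mouse windows was 7.0.

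Among the genes of compact myelin, Mbp stood closest to equality. Mbp, myelin basic protein, seals the cytoplasmic faces of the myelin membrane, and its gene also yields golli transcripts in other cells, which counts per symbol do not separate. Mbp measured 77.9, 82.1, 75.6 and 92.7 CPM in NeMO replicates 1 to 4. In Sham it measured 81.4, 85.7, 76.3 and 83.4 CPM. The ranges lay on top of each other, with NeMO replicate 4 highest and NeMO replicate 3 lowest. The log2 fold change was −0.03 (SE 0.08, 95% interval −0.20 to 0.14, edgeR adjusted p = 0.876), the narrowest interval of the 8 genes.

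Pmp22 measured 132, 90.5, 105 and 107 CPM in the NeMO libraries. The Sham libraries measured 141, 121, 148 and 133 CPM. Of the NeMO libraries, 3 lay below every Sham library, and NeMO replicate 1 lay among the Sham libraries. The means were 109 ± 17.2 and 136 ± 11.3 CPM (SD, n = 4 each), with a log2 fold change of −0.28 (SE 0.11, 95% interval −0.52 to −0.04, edgeR adjusted p = 0.212, unadjusted p = 0.0261). Without NeMO replicate 1 the value was −0.39 (edgeR adjusted p = 0.0674).

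Prx and Mag act outside compact myelin. Prx, periaxin, links the outer Schwann cell membrane to the basal lamina and is also known from endothelial and lens cells. It measured 13.01, 12.6, 11.9 and 17.2 CPM in NeMO. In Sham it measured 13.8, 9.56, 11.1 and 12.7 CPM. Only NeMO replicate 4 lay above the Sham range. The log2 fold change was 0.16 (SE 0.16, 95% interval −0.19 to 0.51, edgeR adjusted p = 0.624). It was 0.25 without Sham replicate 1 and 0.08 without NeMO replicate 4. A list of 6 endothelial markers summed to 304 to 512 CPM in NeMO and 345 to 418 CPM in Sham, with 6 of 6 log2 fold changes above 0 and 0 passing edgeR's test. Their part in the Prx level was not tested.

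Mag, myelin-associated glycoprotein, sits at the inner face of myelin against the axon. It had few reads, with 13, 9, 32 and 32 reads in the NeMO libraries and 34, 16, 36 and 21 in Sham. As CPM these were 0.373, 0.298, 0.932 and 0.886 in NeMO and 1.00, 0.554, 1.08 and 0.798 in Sham. NeMO replicates 1 and 2 were the lowest of all libraries, and NeMO replicates 3 and 4 lay within the Sham range. The interval was wide (log2 fold change −0.43, SE 0.47, 95% interval −1.49 to 0.64, edgeR adjusted p = 0.669). Leaving out NeMO replicate 3 moved the fold change to −0.83, and leaving out NeMO replicate 1 moved it to −0.13.

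Because Sox10 is known to drive myelin genes, the RefSeq windows of the members were searched on both strands for the SOX core letters ACAAAG and ACAATG. Windows were found for 5 of the 8 genes (Gfap, Mag, Pmp22, Prx and S100b), 10 windows in all. A match was present in 2 of them, both of Mag and overlapping, so that they share 1 site. Of all 32851 windows 28.6% held at least 1 of these cores. The more downstream of these 2 windows is printed 5′ to 3′ on its own minus strand (GRCm38.p6), with the core, here in its reverse complement, in capitals.
Mag at chr7:30914814-30915113: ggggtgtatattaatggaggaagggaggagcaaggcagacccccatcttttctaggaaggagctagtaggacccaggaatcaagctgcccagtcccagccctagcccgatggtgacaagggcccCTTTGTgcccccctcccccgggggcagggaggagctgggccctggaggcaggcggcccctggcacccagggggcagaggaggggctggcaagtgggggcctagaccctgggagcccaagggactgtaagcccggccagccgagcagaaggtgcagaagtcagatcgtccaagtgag
A match is a run of letters and not a measured binding site.

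Of the lineage markers, Sox10 itself was rare in bladder RNA. It measured 5.27, 4.54, 3.99 and 4.01 CPM in NeMO. In Sham it measured 4.68, 5.23, 9.16 and 5.55 CPM. Sham replicate 3 stood above the other libraries, and the remaining 7 lay between 3.99 and 5.55 CPM. The log2 fold change was −0.43 (SE 0.24, 95% interval −0.98 to 0.12, edgeR adjusted p = 0.381). Without Sham replicate 3 it was −0.21 (edgeR adjusted p = 0.642).

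S100b, a calcium-binding protein of Schwann cells that adipocytes are also known to make, measured 5.50, 3.58, 2.83 and 2.60 CPM in NeMO. In Sham it measured 5.57, 6.06, 6.62 and 4.82 CPM. NeMO replicates 2 to 4 lay below every Sham library, and NeMO replicate 1 lay above Sham replicate 4. The log2 fold change was −0.58 (SE 0.24, 95% interval −1.11 to −0.05, edgeR adjusted p = 0.240, unadjusted p = 0.0359). It was −0.88 without NeMO replicate 1 (edgeR adjusted p = 0.0754) and −0.37 without NeMO replicate 3 (edgeR adjusted p = 0.492).

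Adipocyte markers, like S100b, were lower on average in NeMO, and their part in its level was not tested. All 8 of the listed adipocyte markers were lower in NeMO, with the median at −1.21 on the log2 scale, and 0 passed edgeR's test. The edgeR unadjusted p was under 0.05 for 5 of the 8 (9.14% of all genes were lower at that limit). DESeq2 called 2 of the 8 (5.53% of all genes). The summed level of the adipocyte markers ran from 349 to 1162 CPM in NeMO and from 936 to 2655 CPM in Sham. Within Sham, replicate 4 had the highest adipocyte sum and the lowest S100b value, and replicate 3 had the lowest adipocyte sum and the highest S100b value. In NeMO replicates 1, 2 and 3 the adipocyte sums were 829, 683 and 349 CPM and S100b was lower in the same order, while replicate 4 had the highest sum (1162 CPM) and the lowest S100b value. S100b also overlaps Dip2a on the opposite strand, which had 1077 to 2503 reads per library.

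Cdh19, a cadherin found on Schwann cells and their precursors, measured 8.71, 6.52, 4.17 and 5.90 CPM in NeMO. In Sham it measured 8.90, 8.03, 14.0 and 8.17 CPM. As for S100b, NeMO replicates 2 to 4 lay below every Sham library while NeMO replicate 1 lay within the Sham range. The log2 fold change was −0.58 (SE 0.27, 95% interval −1.19 to 0.03, edgeR adjusted p = 0.290). Leaving out NeMO replicate 3 gave −0.31 (edgeR adjusted p = 0.571), and leaving out NeMO replicate 1 gave −0.86 (edgeR adjusted p = 0.131).

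Gfap, the intermediate filament of non-myelinating Schwann cells and of astrocytes, was higher on average in NeMO, on few reads. It had 30, 34, 34 and 73 reads in NeMO and 36, 15, 47 and 10 reads in Sham. As CPM these were 0.860, 1.13, 0.990 and 2.02 in NeMO and 1.06, 0.519, 1.41 and 0.380 in Sham. NeMO replicate 4 was the highest library and Sham replicate 4 the lowest, and both belong to batch 2. The log2 fold change was 0.54 (SE 0.54, 95% interval −0.67 to 1.75, edgeR adjusted p = 0.629). In batch 1 alone it was −0.11 (edgeR adjusted p = 0.953), and in batch 2 alone, with its single Sham library, it was 2.05 (edgeR adjusted p = 0.441).

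**Figure D2:**
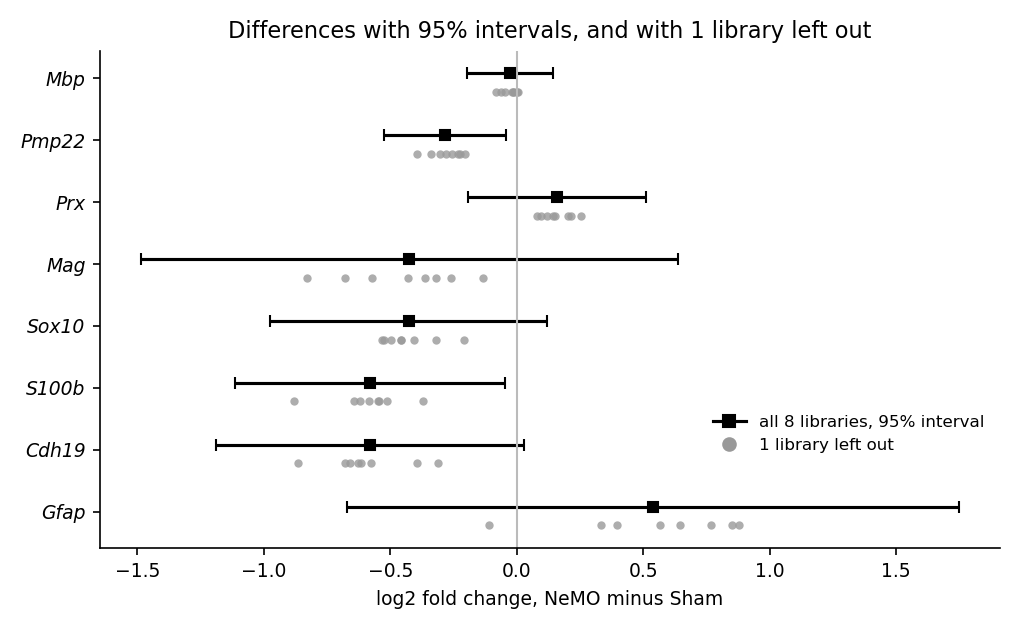
Log2 fold change (NeMO minus Sham) of each gene, as black squares with 95% intervals from edgeR's fit on all 8 libraries; grey points below give the same value with 1 library left out at a time. The intervals of Pmp22 and S100b alone lie to 1 side of 0, and neither gene passed after adjustment over all genes.

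Levels between genes were compared per length, as CPM per kilobase of the longest annotated transcript, which understates genes whose main transcript is shorter. In Sham, Pmp22 stood at 74.4 ± 6.22 CPM per kilobase (SD, n = 4) and Mbp at 17.0 ± 0.835. S100b stood at 3.89 ± 0.512, Cdh19 at 2.50 ± 0.724, Sox10 at 2.21 ± 0.732 and Prx at 2.17 ± 0.339. The last 3 lay within the larger SD of each other. Mag at 0.352 ± 0.0963 and Gfap at 0.318 ± 0.180 closed the order, and these also did not differ beyond their spread. In NeMO the order was Pmp22 (59.7 ± 9.45 CPM per kilobase), Mbp (17.1 ± 1.58), Prx (2.52 ± 0.444), S100b (2.44 ± 0.889), Cdh19 (1.62 ± 0.480), Sox10 (1.60 ± 0.217), Gfap (0.472 ± 0.198) and Mag (0.256 ± 0.137). From Prx to Sox10 in that order, each gene lay within the larger SD of its neighbour.

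**Figure D3:**
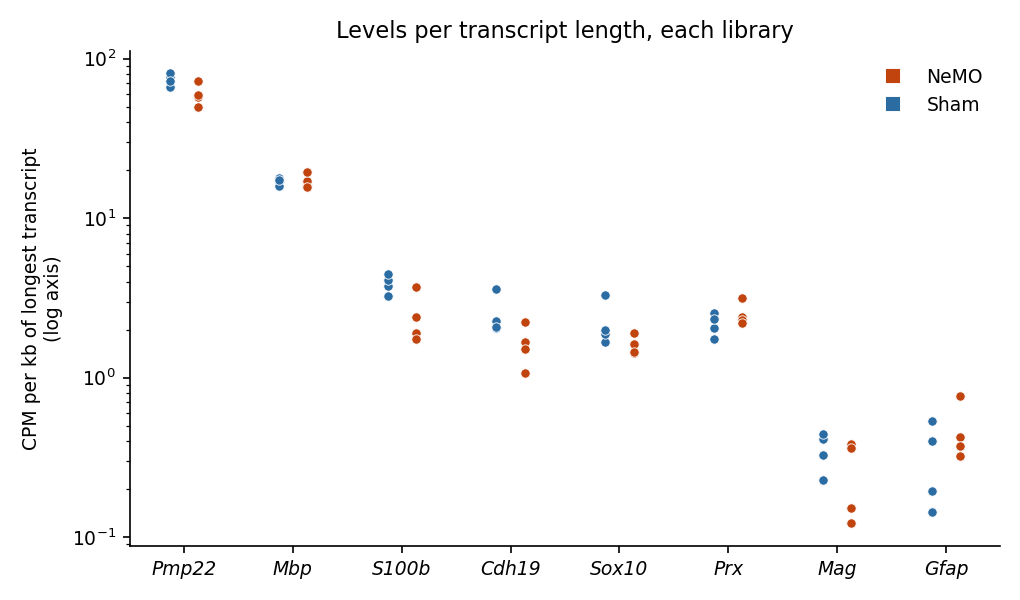
CPM per kilobase of longest transcript on a log axis for the 8 genes, with 1 point per library (Sham blue, NeMO red). Pmp22 and Mbp stand above the others in every library, and Mag and Gfap stand lowest.

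By Pearson r, Cdh19 varied with Sox10 and with S100b over the 8 libraries, and no other pair of the 8 genes passed. By Spearman rho none of the 28 pairs passed. Over all 28 pairs of the 8 genes, log2 CPM of Cdh19 correlated with that of Sox10 (Pearson r = 0.890, exact permutation p = 0.00196, adjusted p = 0.0274 over 28 pairs, Spearman rho = 0.833 with exact permutation p = 0.0154, adjusted 0.144). Cdh19 likewise correlated with S100b (r = 0.873, exact permutation p = 0.00131, adjusted p = 0.0274, rho = 0.833 with exact permutation p = 0.0154, adjusted 0.144). Without the 2 libraries farthest from the median of the first-named partner (Sox10 or S100b), r was 0.777 and 0.789. With the group means removed r was 0.823 and 0.755, and in the 5 libraries of batch 1 it was 0.873 and 0.929. The permutations ignored group and batch, so their p-values also take in the difference between NeMO and Sham. No p was computed with the group means removed. Pmp22 correlated with Cdh19 at r = 0.779, with S100b at r = 0.789 and with Sox10 at r = 0.682 (exact permutation p = 0.0197, 0.0225 and 0.0501, adjusted p = 0.126, 0.126 and 0.234). Pmp22 and Cdh19 had the largest rho of the 28 pairs (0.905, exact permutation p = 0.00456, adjusted 0.128). Their r was 0.889 without the 2 libraries farthest from the median of Pmp22, 0.576 with the group means removed and 0.945 in batch 1. For Mbp the r values with these genes were −0.402 (Sox10), −0.327 (S100b), −0.279 (Pmp22) and −0.186 (Cdh19), and none of them passed. For Prx they were −0.469 (Sox10), −0.590 (S100b), −0.191 (Pmp22) and −0.286 (Cdh19). All points share the same scaling, and batch 2 holds too few libraries (3) for a value of its own.

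**Figure D4:**
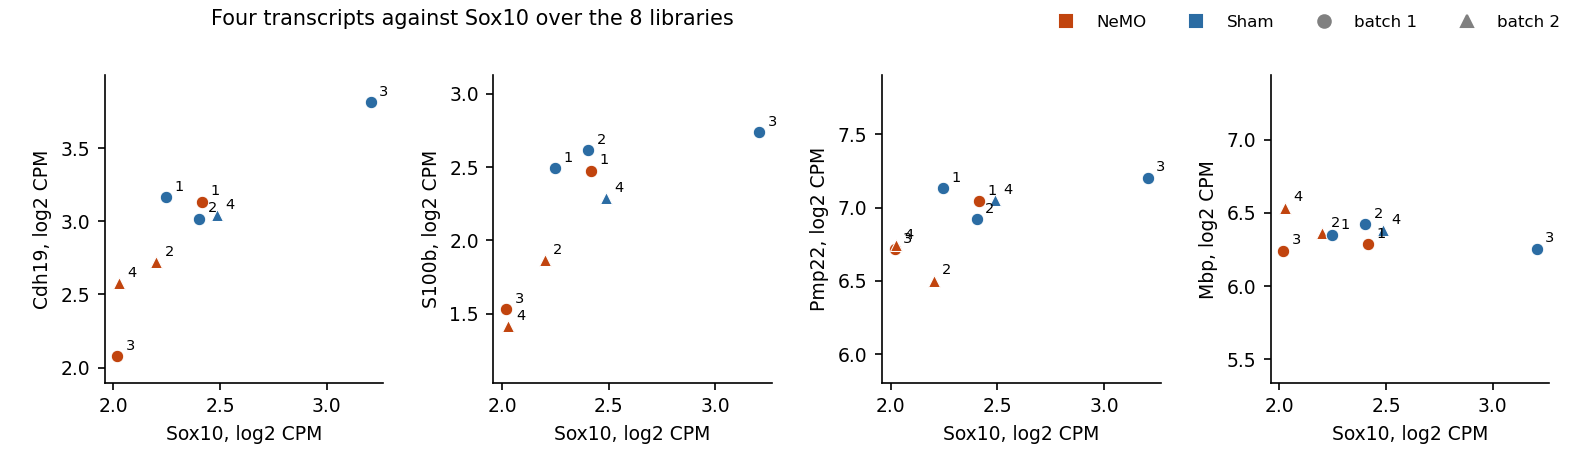
Log2 CPM of Cdh19, S100b, Pmp22 and Mbp against Sox10 in the 8 libraries (Sham blue, NeMO red, circles batch 1, triangles batch 2, replicate numbers beside the points), all vertical axes covering the same span. Cdh19 is higher where Sox10 is higher (r = 0.890), while the r of Mbp is −0.402, and Sham replicate 3 lies apart on the right.

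The genes most like Sox10 over the 8 libraries, among 13230 tested genes of at least 1 CPM, were Fzd4 (r = 0.972), Cttnbp2 (0.958), Ppp1r3f (0.951), Trmt2b (0.950) and Scn4b (0.940). Those most like Mbp were Asl (0.957), Zdhhc14 (0.950), Abcc10 (0.945), Rfxap (0.940) and Acot8 (0.940). For Prx they were Zfp335 (0.942), Kdm4a (0.914), Ankrd27 (0.914), Bcas3 (0.913) and Caml (0.908). None of these 15 genes stands in a Schwann cell list used here. An r over 0.9 was reached by 11 genes for Sox10, 25 for Mbp and 5 for Prx. The named genes are the extremes of 13230 compared over only 8 libraries, and no p was computed. How many genes would reach 0.9 by chance was not estimated, so a shared pattern is not shown.

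Other genes linked to Schwann cells were taken from 6 lists, which overlap with each other and with the 8 genes. The lists are not specific to Schwann cells, and the part of other bladder cells in their values was not tested. None of their 75 tested genes outside the 8 passed edgeR's test (unadjusted p under 0.05 for 12 higher and 11 lower genes, with 7 and 4 called by DESeq2). Over all genes the shares were 9.38% higher and 9.14% lower before adjustment, and 5.53% called by DESeq2. In the list of myelin structure, 10 of 18 tested genes were lower and 8 higher, and the median log2 fold change was −0.03. The edgeR unadjusted p was under 0.05 for 3 of the 18, all lower, with Pmp22 among them. The list is described further by 2 of its genes. The most abundant gene of the list was Mal, a membrane protein of myelin and of epithelia (534 ± 58.0 CPM in NeMO, 548 ± 42.0 in Sham). The smallest p belonged to Bcas1, a protein of myelinating glia that epithelia also make (log2 fold change −0.63, SE 0.18, edgeR adjusted p = 0.136), which DESeq2 called (adjusted p = 0.0322).

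Of 14 tested genes that set Schwann cell identity, 6 were lower and 8 higher, with a median of 0.04. Dhh, the hedgehog ligand that Schwann cells send to the nerve sheath, had the smallest p. It averaged 1.36 ± 0.449 CPM in NeMO and 2.51 ± 0.661 in Sham (SD, n = 4 each), a log2 fold change of −0.96 (SE 0.31, edgeR adjusted p = 0.165). Egr2, the main activator of myelin genes, ran from 1.03 to 3.18 CPM in NeMO and from 1.26 to 4.06 in Sham. The abundant members Tead1 and Qk, made in many cell types, stood at 0.26 (SE 0.09) and 0.14 (SE 0.09). Erbb3, the neuregulin receptor of Schwann cells that the urothelium also carries, stood at 0.06 (SE 0.07).

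Genes of non-myelinating and immature Schwann cells numbered 18, of which 11 were lower and 7 higher. Their median was −0.28, and −0.10 without Sham replicate 4, which leaves only batch 1 with both groups. The edgeR unadjusted p was under 0.05 for 5 lower and 2 higher genes (9.14% and 9.38% of all genes). In that list DESeq2 called Sostdc1 and Kcna1 lower and Ncam1 higher (5.53% of all genes were called), while edgeR called none. Sostdc1, a secreted inhibitor of Wnt and BMP signals, had groups that did not overlap (1.98 to 3.94 CPM in NeMO, 4.57 to 9.57 in Sham). Its log2 fold change was −1.20 (SE 0.31, edgeR adjusted p = 0.117), where 3.81% of all genes were lower without overlap. Kcna1, a potassium channel subunit of axons and glia, stood at −0.97 (SE 0.29, edgeR adjusted p = 0.155). Ncam1, an adhesion molecule of non-myelinating Schwann cells, axons and muscle, stood at 0.57 (SE 0.13, edgeR adjusted p = 0.0940). Scn7a, a sodium channel relative of glia, stood at −0.28 (SE 0.12, edgeR adjusted p = 0.251). Ngfr, the neurotrophin receptor p75, spread from 5.60 to 18.3 CPM in NeMO and from 5.54 to 16.3 in Sham.

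The most abundant genes of that list were Apoe (432 ± 141 CPM in NeMO, 478 ± 118 in Sham) and Art3 (204 ± 71.4 and 295 ± 55.0).

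After nerve injury Schwann cells are known to turn into repair cells. Of 11 tested repair genes 7 were higher and 4 lower. Their median was 0.07, and 0.36 without Sham replicate 4, which leaves only batch 1 with both groups. The edgeR unadjusted p was under 0.05 for 3 of the 11, all higher (9.38% of all genes). The groups did not overlap for 2 of the 11, both higher (4.39% of all genes). Bdnf, a neurotrophin that muscle and epithelium also make, was the gene with the smallest p (log2 fold change 1.65, SE 0.33, edgeR adjusted p = 0.0850, called by DESeq2). Igfbp2 and Mcam, the most abundant, stood at 0.25 (SE 0.31) and 0.07 (SE 0.13). Per kilobase, Igfbp2 averaged 501 CPM and Mcam 104 in Sham, where Sox10 averaged 2.21. The part of other bladder cells in the Igfbp2 and Mcam levels was not tested. Genes of the axon-glia junction were lower in 9 of 12 cases, with a median of −0.09. The edgeR unadjusted p was under 0.05 for 4 of the 12 junction genes, all lower (9.14% of all genes). Among them Cadm4, the Schwann cell adhesion partner of axonal Cadm3, stood at −0.49 (SE 0.15, edgeR adjusted p = 0.145). Nfasc, which anchors the node and its flanks, stood at −0.79 (SE 0.24, edgeR adjusted p = 0.161) and was called by DESeq2. Ank3 and Mpp6, the most abundant, stood at −0.03 (SE 0.13) and −0.30 (SE 0.11).

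Neuregulin, laminin and integrin genes, through which axon and basal lamina instruct Schwann cells, were higher in 13 of 14 cases. Their median log2 fold change was 0.19. The edgeR unadjusted p was under 0.05 for 5 of the 14, all higher (9.38% of all genes). DESeq2 called 4 of the 14, all higher, with Itga6 and laminin genes among them (5.53% of all genes were called). Genes of this list are made by many cells of the bladder. Itga6, a laminin-binding integrin, stood at 0.39 (SE 0.10, edgeR adjusted p = 0.121) and was called by DESeq2 (adjusted p = 0.0313), and the abundant Itgb1 and Lama5 stood at 0.31 (SE 0.14) and 0.02 (SE 0.11).

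**Figure D5:**
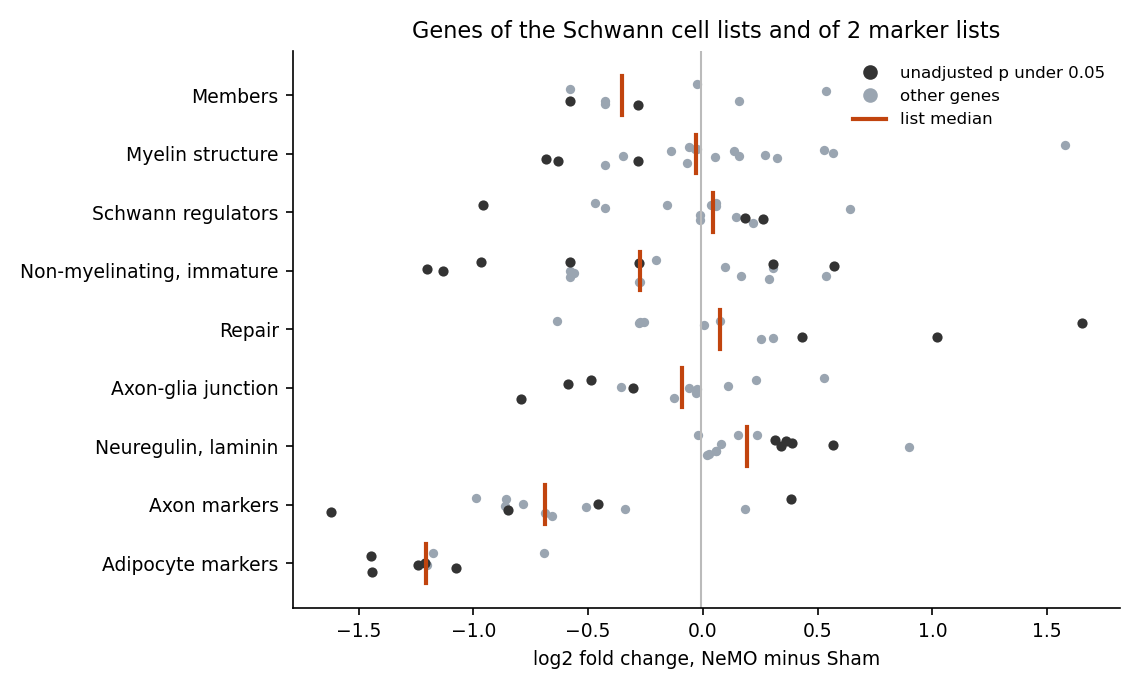
Log2 fold change (NeMO minus Sham) of each tested gene in the 8-gene set, in 6 Schwann cell lists and in the axon and adipocyte marker lists; dark points have an unadjusted p under 0.05, red bars are list medians, the grey line is the median of all genes, and vertical scatter within a row has no meaning. The axon and adipocyte medians (−0.69 and −1.21) lie further below 0 than that of the 8 genes (−0.35). Other marker lists are not drawn, such as fibroblast (median 0.40) and urothelium (−0.28).

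Axon markers were mostly lower on average in NeMO, as 6 of the 8 genes were, and their part in the Schwann cell values was not tested. Of 13 tested axon genes 11 were lower and 2 higher in NeMO, with a median of −0.69, and 0 passed edgeR's test. The edgeR unadjusted p was under 0.05 for 3 lower genes and 1 higher (9.14% and 9.38% of all genes). DESeq2 called 1 axon gene, Map1b, which was higher (5.53% of all genes were called). The summed level of the axon markers ran from 334 to 475 CPM in NeMO and from 450 to 544 in Sham. Most of it was Uchl1 (log2 fold change −0.46, SE 0.14, edgeR adjusted p = 0.161). Uchl1 averaged 264 CPM in NeMO and 334 in Sham, and Map1b averaged 118 and 93.3. Per kilobase, Uchl1 stood at 283 CPM in Sham, where the axon markers Nefl and Tubb3 stood at 1.18 and 2.74. The part of other bladder cells in the Uchl1 and Map1b levels was not tested, so the sum is not a measure of axon content. Map1b, a microtubule protein, had the smallest p and stood at 0.39 (SE 0.08, edgeR adjusted p = 0.0867). Leaving out 1 library at a time moved the axon median between −0.98 and −0.37. Some axon markers spread widely within Sham. Nefl had 4 reads in Sham replicate 2, 127 to 198 in the other Sham libraries and 31 to 133 in NeMO. Tubb3 had 25 reads in Sham replicate 2, 163 to 249 in the other Sham libraries and 42 to 135 in NeMO. Stmn2 did not set that library apart (506 reads, with 500 to 679 in the others of Sham). The cause of this spread was not tested.

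The label of the gene set was checked against cells that share its markers. Of 6 oligodendrocyte markers, the central myelinating glia, Opalin, Olig2 and Ermn had no read in any of the 8 libraries (a count of 0 allows up to 3 reads), and Mog had at most 4 reads. The list summed to 3.05 to 4.49 CPM in NeMO and 2.53 to 5.27 in Sham, nearly all Mobp and Cldn11. The 6 melanocyte markers, from another neural crest lineage with Sox10, summed to 13.1 to 19.6 and 13.4 to 17.9 CPM, most of it the widely made Mitf. The 10 markers of nerve sheath cells summed to 116 to 153 and 117 to 146 CPM, with 4 of 9 tested genes lower. The 7 fibroblast markers, cells that also make Pmp22, summed to 10413 to 27166 CPM in NeMO and 11012 to 14834 in Sham, with NeMO replicate 3 highest. Of these 7, 6 were higher and 1 lower on average in NeMO, with a median log2 fold change of 0.40, where Pmp22 stood at −0.28. None passed edgeR's test, and the part of fibroblasts in the Pmp22 level was not tested. Of 7 urothelium markers, the epithelium in which Pmp22, Bcas1, Mal and Erbb3 may also be made, 6 were lower on average in NeMO, with a median log2 fold change of −0.28. None passed edgeR's test. DESeq2 called 5.53% of all genes, and it called 3 of these 7 markers, all lower. They summed to 5340 to 7969 CPM in NeMO and 6317 to 8497 in Sham, and their part in the values of these genes was not tested.

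On the GRCm38 assembly (GENCODE M21), Mbp spans chromosome 18 from 82475146 to 82585637 and Pmp22 chromosome 11 from 63128982 to 63159547, both on the plus strand. Prx (27499324 to 27520214, plus strand) and Mag (30899176 to 30914873, minus strand) share chromosome 7. Sox10 lies on chromosome 15 (79154908 to 79165240, minus strand), S100b on chromosome 10 (76253853 to 76261159, plus strand), Cdh19 on chromosome 1 (110888326 to 110977584, minus strand) and Gfap on chromosome 11 (102887336 to 102900912, minus strand). All 8 are protein-coding genes, and counts per symbol resolve no exon or isoform. Annotated genes on the opposite strand overlap Mbp, Prx, S100b and Gfap, and since the strand setting of the counting is not given, their reads cannot be told apart.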

How the data were processed

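Per the labels' protocols, directional libraries were made from DNase-treated, Trizol-extracted bladder RNA and read single-end. The authors deposited whole-number read counts per gene symbol, made, per the submitters' processing notes, with Trimmomatic, STAR and featureCounts on mm10, with DESeq2 also named. For the annotation, the strand setting and multimapping: not given in the sources used here.

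Tests used edgeR 4.0.16 under R 4.3.3 (filterByExpr, minimum count 10, minimum total 15, leaving 16370 genes; TMM; robust quasi-likelihood F-test with batch and group, two-sided). SE is the fold change divided by the root of F, and 95% intervals use its t quantile. DESeq2 1.42.0 was an alternative. Log2 CPM use a prior count of 2. The batch comes from the deposited file names. The members and lists were chosen with earlier results of these data known. Named genes are the members and, per list, those past the threshold or else the 2 most abundant and the smallest p, with other cell types given as sums. Egr2, Erbb3, Ngfr, Sostdc1, Kcna1, Scn7a and Nfasc were added after their values were seen. Nefl, Tubb3 and Stmn2, also chosen after their values were seen, are given only for level and spread and were not followed through the alternatives. Some listed genes enter the counts and are not reported here by name. Of list symbols, 3 were matched through RefSeq synonyms. On simulated data of 16212 genes the test recovered 73.7% of the genes given a log2 change of 1. It recovered 96.0% of those given 2, with 11 false calls. The log2 fold changes of the members ran from −0.58 to 0.54, and the simulation gives no recovery rate for changes that small. How the simulated spread compares with that between the libraries is not given here. In the libraries, Bdnf did not pass edgeR's test at a log2 fold change of 1.65 (SE 0.33, adjusted p = 0.0850). The simulated rates are therefore not a measure of power for the members. Every pair of libraries within a group differed beyond sampling noise (chi-square per degree of freedom at least 20.6).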

Additional observations from a re-analysis of the deposited data

Results flagged for a closer look

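Cdh19 measured 14.0 CPM in Sham replicate 3, against 8.03 to 8.90 CPM in the other Sham libraries. The gap to the next library was 0.855 of the group's range, above Dixon's 95% critical value for 4 samples. It was the 1 value past that limit among 16 groups tested (8 genes, NeMO and Sham), and chance gives about 1 in 20 groups. Sox10 in the same library came next, at 0.807 of the range. Without Sham replicate 3 the Cdh19 log2 fold change was −0.40 (edgeR adjusted p = 0.472).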

How the results depend on the processing

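None of the 8 genes passed the threshold under any of the 18 alternatives, and their median log2 fold change stayed below 0, between −0.42 and −0.23 with 1 library left out. Pmp22, S100b, Sox10, Cdh19, Mag and Prx kept their direction in all 18. Mbp turned above 0 without the batch term (0.0065), in batch 2 alone (0.076) and with the replicate block (0.0032), and ran from −0.081 to 0.0035 with 1 library left out. Gfap was −0.11 in batch 1 alone and ran from −0.11 (without Sham replicate 4) to 0.88 with 1 library left out. Sham replicate 4 is the only Sham library of batch 2. With it left out, the batch term leaves the contrast between NeMO and Sham to batch 1. Values without it therefore repeat the batch 1 contrast and are not a separate check. The cause of the difference between the batches was not tested. The number of genes past the threshold, 12 with all libraries, was 172 with no filter, 866 with DESeq2, 7 without the batch term, 0 in batch 1 alone, 7 in batch 2 alone, and 0 to 652 with 1 library left out (652 without NeMO replicate 1, 50 without NeMO replicate 2, 7 without NeMO replicate 3, 3 and 4 without Sham replicates 1 and 2, 11 without Sham replicate 3, and 0 without NeMO or Sham replicate 4). With the replicate block it was 0. The labels do not tie same-numbered libraries to a shared animal, and 3 of the 4 pairs also share a batch; their deviations correlated at −0.010, 0.082, 0.044 and 0.324, and 2 of the 4 numbers matched best with each other. Of the other named genes, signs turned in batch 1 alone for Lama5 (−0.10), Egr2 (0.37), Erbb3 (−0.0048) and Ngfr (0.20). In batch 2 alone they turned for Mal (0.029), Mcam (−0.10), Ank3 (0.10) and Mpp6 (0.0057). The length and GC correction turned Qk (−0.024), Lama5 (−0.091) and Erbb3 (−0.015), and with the replicate block and that correction Mal (0.013), Qk (−0.024) and Lama5 (−0.078). With 1 library left out, values ran from −0.12 to 0.015 (Mal), −0.065 to 0.17 (Mcam), −0.16 to 0.13 (Ank3), −0.10 to 0.15 (Lama5), −1.23 to 0.37 (Egr2), −0.0055 to 0.12 (Erbb3) and −0.95 to 0.19 (Ngfr). The other named genes crossed the threshold 15 times, each time into it: 8 with DESeq2, Ncam1 and Map1b with no filter, Art3, Cadm4, Itga6 and Nfasc without NeMO replicate 1, and Map1b without NeMO replicate 2. The myelin structure median turned without the batch term (0.024), in batch 2 alone (0.13), with the replicate block (0.0098) and with the length and GC correction, without (0.011) and with (0.033) that block, and the Schwann cell identity median in batch 2 alone (−0.058), with that correction (−0.019) and without NeMO replicate 1 (−0.0085). Depth limits Mag and Gfap, with 9 to 36 and 10 to 73 reads per library.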

Other observations

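Dct, the melanocyte enzyme dopachrome tautomerase, had 66 reads in NeMO replicate 3 and 1 to 5 reads in each of the other 7 libraries. Tyr, the enzyme that defines melanocytes, had 3 reads in that library and 0 in the others. Sox10, which melanocytes also need, stood at 3.99 CPM there, the lowest of the 8 libraries.

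The processed pseudogene Rpl21-ps8, which lies within Mbp on the opposite strand, had 15 to 36 reads in the 5 libraries of batch 1 and 0 to 4 in the 3 libraries of batch 2, while Mbp itself had 2196 to 3351 reads in all libraries.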
